A study of Homo sapiens with 4 samples.

Results

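The genes of the BCL2 family decide whether a cell keeps its mitochondria intact, and the accessible chromatin around 10 of them is described here in ME-1 leukaemia cells. BCL2, MCL1 and BCL2L1 are survival genes, and BAX, BAK1, BCL2L11, BBC3, PMAIP1, BID and BAD are death genes. Members were the accessible sites with a peak midpoint within 50 kb of the approximate transcription start of one of these genes (hg19, starts given to the nearest 1 kb). They made up 114 of the 103230 merged regions in the data, 34 in the windows of the 3 survival genes and 80 in those of the 7 death genes. Sites entered by position only; the genes themselves were chosen with earlier results of these data known.

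The assay was ATAC-seq, which uses a transposase to cut and tag open DNA. ME-1 is a long-established human line of acute myeloid leukaemia with inv(16), the inversion behind the fusion protein CBFβ-SMMHC. One group received the solvent DMSO and the other AI-10-49, a small molecule that keeps CBFβ-SMMHC from binding the transcription factor RUNX1, at 1 µM. Both were treated for 6 h, each group held 2 libraries, and a single cell line stands for the disease.

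Proteins of this family share short helical motifs through which they bind each other on the outer mitochondrial membrane. BCL2, MCL1 and BCL-XL, the main product of BCL2L1, hold the effectors BAX and BAK in check. Once released, BAX and BAK open pores in the membrane and cytochrome c escapes, which starts the caspases. The BH3-only proteins BIM (from BCL2L11), PUMA (BBC3), NOXA (PMAIP1), BID and BAD bind the survival proteins or the effectors and tip the balance towards death. Myeloid leukaemias often rely on BCL2 or MCL1 for survival, and drugs against BCL2 are in use.

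RefSeq promoter windows were found for 9 of the 10 genes, all but MCL1, on build GRCh38.p14. The peaks are on hg19 and no position was converted, so where a peak falls in these letters was not determined. The 250 bases before the annotated start are shown, 5′ to 3′ along the gene, for 6 genes. The strongest promoter regions of BCL2, BCL2L1, PMAIP1 and BAX ranked higher after AI-10-49 without overlap between the groups. BCL2L11 and BBC3 were the genes whose strongest promoter region was not listed in every library, and BID had no promoter region. Capitals mark matches on either strand to the motifs searched. These were the RUNX letters TGTGGT and TGCGGT, the E-box CACGTG bound by MYC and related factors, the GC box GGGCGG, the ETS letters CCGGAA, the CCAAT box, TTGCNNAA of C/EBP, TGANTCA of AP-1, and the NRF1 motif. Matches could overlap.
BCL2 (chr18:63319770-63320019, minus strand): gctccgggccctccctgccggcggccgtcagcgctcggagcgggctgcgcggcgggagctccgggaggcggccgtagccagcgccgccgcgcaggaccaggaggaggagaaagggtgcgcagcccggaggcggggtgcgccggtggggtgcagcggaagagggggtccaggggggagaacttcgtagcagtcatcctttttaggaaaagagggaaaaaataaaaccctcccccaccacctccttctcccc
BCL2L1 (first of 2 RefSeq windows, chr20:31723964-31724213, minus strand): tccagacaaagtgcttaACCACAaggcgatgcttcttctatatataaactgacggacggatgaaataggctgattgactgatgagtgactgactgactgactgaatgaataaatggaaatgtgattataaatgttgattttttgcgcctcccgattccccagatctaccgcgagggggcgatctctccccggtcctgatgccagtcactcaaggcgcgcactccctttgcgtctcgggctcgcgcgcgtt
BAX (chr19:48954625-48954874, plus strand): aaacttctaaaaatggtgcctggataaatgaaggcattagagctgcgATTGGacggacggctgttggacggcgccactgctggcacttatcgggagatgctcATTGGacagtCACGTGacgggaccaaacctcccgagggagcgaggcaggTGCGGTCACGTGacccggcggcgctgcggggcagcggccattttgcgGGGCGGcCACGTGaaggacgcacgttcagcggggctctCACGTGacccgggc
BCL2L11 (chr2:111120664-111120913, plus strand): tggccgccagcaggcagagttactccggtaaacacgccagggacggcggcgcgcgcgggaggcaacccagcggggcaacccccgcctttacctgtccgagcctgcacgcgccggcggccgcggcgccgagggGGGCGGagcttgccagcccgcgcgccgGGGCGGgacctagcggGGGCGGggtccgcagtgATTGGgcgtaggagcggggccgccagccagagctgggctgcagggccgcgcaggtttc
BBC3 (chr19:47232668-47232917, minus strand): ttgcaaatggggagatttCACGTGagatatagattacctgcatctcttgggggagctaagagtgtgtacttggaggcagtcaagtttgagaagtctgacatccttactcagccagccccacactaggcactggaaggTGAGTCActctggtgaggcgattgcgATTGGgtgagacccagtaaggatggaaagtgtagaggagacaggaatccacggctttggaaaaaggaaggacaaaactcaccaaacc
PMAIP1 (chr18:59899746-59899995, plus strand): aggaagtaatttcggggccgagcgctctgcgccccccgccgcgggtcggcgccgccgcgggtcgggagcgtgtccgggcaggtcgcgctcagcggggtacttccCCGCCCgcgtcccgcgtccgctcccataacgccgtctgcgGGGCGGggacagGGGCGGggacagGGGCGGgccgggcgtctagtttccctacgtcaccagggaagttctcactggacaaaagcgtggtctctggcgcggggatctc

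The BAX window held 4 copies of CACGTG, while 6.34% of all 35116 RefSeq windows of this length held at least 1 and 5 windows, or 0.0142%, held 4 or more. It also held 1 copy of the RUNX letters TGCGGT, next to an E-box; 5.84% of windows held these letters. The first BCL2L1 window held 1 copy of TGTGGT on the other strand, a word found in 11% of windows. The second BCL2L1 window, not shown, held none of the words searched. BCL2L11 and PMAIP1 held 3 and 4 copies of GGGCGG, a word found in 42.6% of windows. In BBC3 there was 1 E-box, 1 CCAAT box and 1 AP-1 match, and the latter 2 words occurred in 32% and 6.57% of windows. The BCL2 window held none of the words searched. GC content was 76.8% in BCL2L11, 72.8% in PMAIP1, 70.0% in BCL2, 62.8% in BAX, 50% in the first BCL2L1 window and 49.2% in BBC3, against a median of 58.0% over all windows. A match describes letters in the reference and is not evidence of a bound factor.

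Both DMSO lists were longer, at 67388 and 65132 peaks for replicates 1 and 2, than the AI-10-49 lists, at 48930 and 53438. Values of a group are given below in the order of replicates 1 and 2. The number of reads at each summit was recovered from the deposited values, and the most frequent background was 0.0613 and 0.06 reads per base with DMSO, against 0.0965 and 0.108 with AI-10-49. Read numbers therefore run higher in the AI-10-49 libraries. Over the 29042 regions listed in all 4 libraries the median summit held 8 and 7 reads with DMSO, against 9 and 10 with AI-10-49. As a check of cell identity, promoters of 4 of 5 myeloid genes (SPI1, PTPRC, CD33 and MPO, but not CEBPA, which was missing from 1 list) held a region found in all 4 libraries. The same was true of 0 of 5 genes of other cell types, among them CD3E, PAX5 and ALB.

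A promoter region was listed in every library for all 3 survival genes, against 4 of 7 death genes. A promoter region was one with its midpoint within 2 kb of the start, and the leading one was the strongest of these within the lists. The leading region was listed in all 4 libraries for BCL2, MCL1, BCL2L1, BAX, BAK1, PMAIP1 and BAD. For BCL2L11 it was listed in 3 libraries, for BBC3 in both AI-10-49 libraries alone, and BID had no region within 2 kb. These counts are descriptions, since genes are not replicates. The same share over all genes was not counted. Of 15 other apoptosis genes, described below, 9 had a promoter region in all 4 libraries. The number of genes was 7 in all lists, 6 when regions had to overlap by 50% in both directions (MCL1 dropped out), 6 with promoters taken within 1 kb (BCL2 dropped out) and 5 with a −log10 q-value of 5 or more (MCL1 and BAX dropped out). Without DMSO replicate 1 it was 8, with BCL2L11 added.

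**Figure D1:**
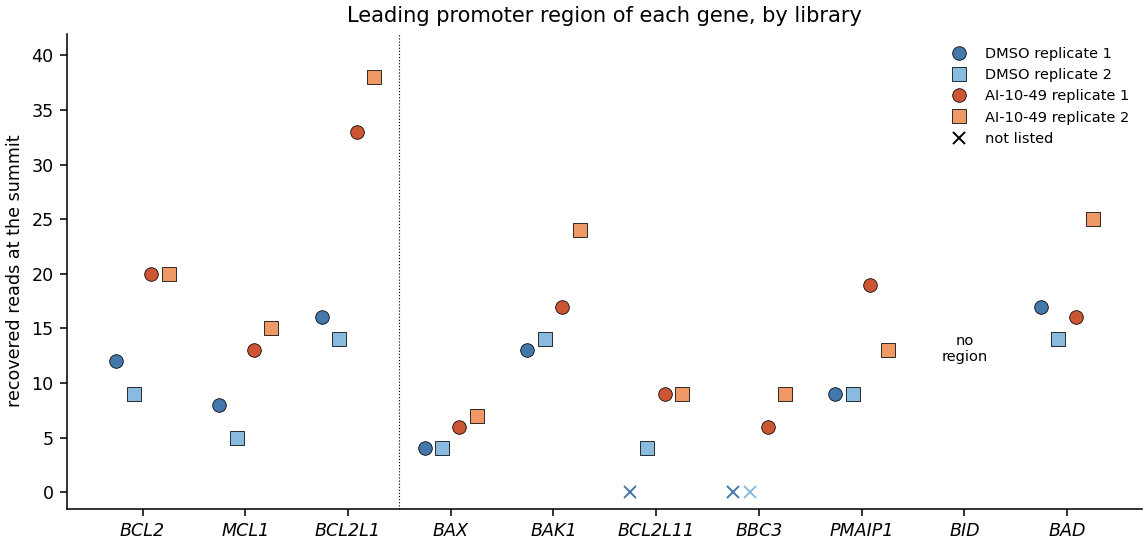
Recovered reads at the summit of the leading promoter region (vertical axis) for each gene (horizontal axis), with 1 point per library; crosses at the base mark lists without the region. Survival genes stand left of the dotted line. BCL2L1 reached 33 and 38 reads with AI-10-49 against 16 and 14 with DMSO, and BBC3 has points for the AI-10-49 libraries only.

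Among survival genes, the BCL2L1 promoter was the strongest. Its leading region, chr20:30311297-30311590 (hg19, as all peak positions here), had 16 and 14 reads with DMSO, against 33 and 38 with AI-10-49. Both AI-10-49 libraries lay above both DMSO libraries. In bulk cells, more cells with an open site and more cuts per cell cannot be told apart. To allow for the higher read numbers with AI-10-49 in general, each region was ranked by its −log10 p-value among the same 29042 regions in every library, with 100 as the strongest. BCL2L1 ranked at percentiles 82.2 and 81.2 with DMSO, against 97.3 and 97.0 with AI-10-49. A neighbouring region, chr20:30311704-30311870, was listed in DMSO replicate 1 with 7 reads and in the AI-10-49 libraries with 11 and 12.

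BCL2, whose protein is the classical guardian against apoptosis, had its leading region at chr18:60987362-60987540. It held 12 and 9 reads with DMSO, against 20 and 20 with AI-10-49. The ranks were 53.6 and 50.5 with DMSO, against 83.2 and 78.9 with AI-10-49, so the groups did not overlap. A second promoter region on the other side of the approximate start, chr18:60985387-60985547, was listed less evenly. It had 11 and 4 reads with DMSO, 9 in AI-10-49 replicate 1, and was missing from the list of AI-10-49 replicate 2. The leading region lies at 1.45 kb and the other at -0.53 kb from the start, counted along hg19 coordinates.

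MCL1 encodes a short-lived survival protein that myeloid cells depend on. Its single promoter region, chr1:150551989-150552418, held 8 and 5 reads with DMSO, against 13 and 15 with AI-10-49. The ranks were 49.1 and 19.5 with DMSO, against 70.3 and 68.3 with AI-10-49. The SD between the DMSO libraries was 21 percentiles, and the mean rank difference of 35.0 became 19.1 without DMSO replicate 2 and 49.5 without DMSO replicate 1.

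Of the effectors, BAK1 had a strong promoter and BAX a weak one. The BAK1 region, chr6:33547945-33548175, held 13 and 14 reads with DMSO, against 17 and 24 with AI-10-49. Its ranks of 78.4 and 89.1 with DMSO, against 82.8 and 91.4 with AI-10-49, overlapped, and the sign of their mean difference of 3.4 changed to -1.9 without DMSO replicate 1 and to -0.8 without AI-10-49 replicate 2. The BAX region, chr19:49457866-49458111, held 4 and 4 reads with DMSO, against 6 and 7 with AI-10-49. It ranked at 10.9 and 11.7 with DMSO and at 23.6 and 24.1 with AI-10-49, without overlap but low in every library. This is the gene whose RefSeq window shown above carries 4 E-boxes.

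Among the BH3-only genes, the leading promoter region of PMAIP1 ranked higher with AI-10-49 without overlap and that of BAD overlapped. The others lacked a leading promoter region in all 4 libraries. PMAIP1, which encodes NOXA, a protein that counters MCL1, had its leading region at chr18:57567037-57567307 with 9 and 9 reads with DMSO, against 19 and 13 with AI-10-49. The ranks were 41.3 and 36.3 with DMSO, against 80.7 and 50.5 with AI-10-49. The mean difference of 26.8 was 12.1 without AI-10-49 replicate 1 and 40 without AI-10-49 replicate 2. A second PMAIP1 promoter region in all 4 libraries, chr18:57568103-57568292, held 7 and 10 reads with DMSO, against 11 and 8 with AI-10-49. Its ranks of 12.2 and 44.4 with DMSO, against 35.2 and 5.1 with AI-10-49, overlapped, with a mean difference of -8.1. BAD, which binds BCL2 and BCL-XL, had one of the strongest promoters of the set, chr11:64052122-64052344, with 17 and 14 reads with DMSO, against 16 and 25 with AI-10-49. Its ranks of 90.6 and 86.5 with DMSO, against 79.1 and 90.7 with AI-10-49, overlapped, and the sign of its mean difference of -3.6 changed to 1.9 without AI-10-49 replicate 1.

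BCL2L11 and BBC3, the genes of BIM and PUMA, had promoter regions that were weak in the DMSO libraries or missing from their lists. At BCL2L11, chr2:111878378-111878544 was missing from the list of DMSO replicate 1, had 4 reads in DMSO replicate 2 and 9 and 9 in the AI-10-49 libraries. The next region along the gene, chr2:111880007-111880231, was found with AI-10-49 alone, with 7 and 8 reads. At BBC3, chr19:47734578-47734701 was listed with 6 and 9 reads with AI-10-49 and in neither DMSO list. The background recovered at that summit was 0.710 and 1.05 reads per base in the AI-10-49 libraries, well above their genome-wide background, and its −log10 p-values were 5.01 and 6.77. A region not listed is one below the authors' cutoff, so a weaker site in DMSO was not detectable in these files.

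BID, whose product links death receptors to mitochondria, had its nearest region in all 4 libraries at chr22:18254416-18254624, at -2.48 kb from the start. It held 5 and 3 reads with DMSO, against 5 and 15 with AI-10-49. The high value came from AI-10-49 replicate 2 alone, and its ranks of 11.4 and 1.3 with DMSO, against 7.2 and 72.8 with AI-10-49, overlapped.

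Over the 7 leading promoters found in all libraries, the rank was higher with AI-10-49 without overlap between the groups for 5 (BCL2, MCL1, BCL2L1, BAX and PMAIP1) and lower without overlap for 0. Over all 29042 common regions, 19.6% ranked higher with AI-10-49 without overlap and 18.8% lower. The share ranked higher was 35.9% on chromosome 19, which holds BAX. It was 17.5% to 22.6% on chromosomes 1, 18 and 20, which hold the others. These shares are over common regions of every kind, and the share over promoters in general was not computed. The median rank difference was 15.5 over the 7 promoters, 29.0 over the 3 survival and 8.0 over the 4 death genes. The quartiles over all common regions were -11.6 and 11.4, and their median was 0. Taken as 1 value per library, the median promoter rank was 52.1 ± 2.24 with DMSO and 79.8 ± 1.27 with AI-10-49 (SD, n = 2 each; two-sided exact permutation p = 0.33, adjusted p = 0.33 over 5 tests). This median was the rank of BCL2 in both DMSO libraries and AI-10-49 replicate 2, and that of PMAIP1 in AI-10-49 replicate 1. The difference of these medians, 27.7, is therefore another measure than the median difference of 15.5 over genes. The difference of 27.7 became 11.4 with a −log10 q-value of 5 or more, where 5 genes remained. With 2 against 2 libraries 0.33 is the smallest p possible, so no comparison between the treatments could pass 0.05.

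**Figure D2:**
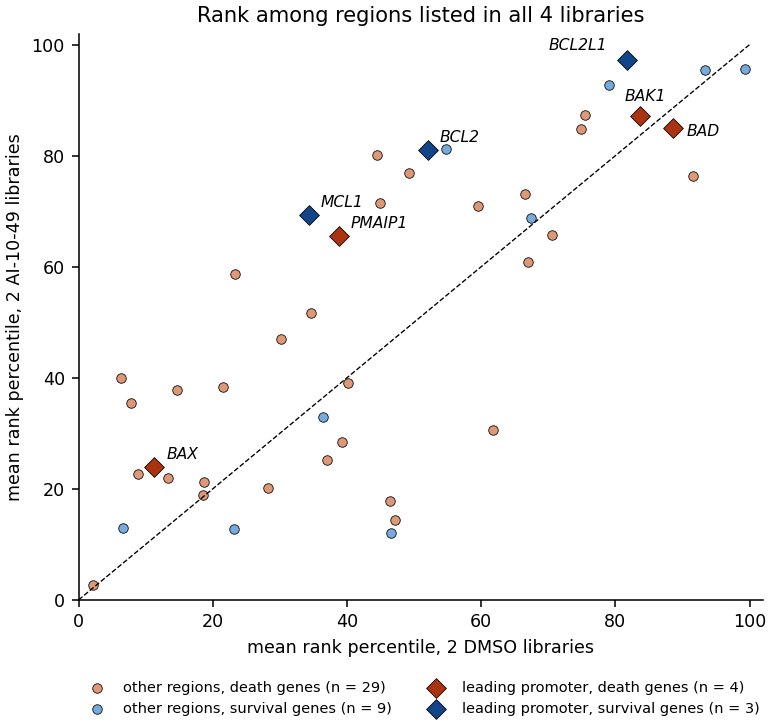
Mean rank percentile in the 2 AI-10-49 libraries (vertical axis) against that in the 2 DMSO libraries (horizontal axis) for the 45 member regions listed in all 4 libraries; diamonds are the 7 leading promoters and the dashed line marks equal rank. All 3 survival gene promoters lie above the line, while BAK1 and BAD lie close to it.

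Summit height over the library's most frequent background gave a second view. Across the genome this height was lower with AI-10-49, with a median log2 ratio of -0.42, and 47.9% of common regions were lower without overlap between the groups and 5.21% higher. The leading promoters had a median log2 ratio of 0.10, and the median over promoters in general was not computed. BCL2L1 (0.49) and MCL1 (0.36) were higher without overlap, BAX (-0.05) and BAD (-0.36) were lower without overlap, and BCL2 (0.19), PMAIP1 (0.10) and BAK1 (-0.16) overlapped. Relative to the genome's median, BCL2L1 stood 0.92 higher, MCL1 0.78, BCL2 0.61, PMAIP1 0.52, BAX 0.37, BAK1 0.27 and BAD 0.06. With the background recovered at each summit in place of the library's, the promoters' median ratio was -0.03. The genome's median with that background was not computed, so this value cannot be set against -0.42.

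The promoters of other apoptosis genes were counted in the same way, and the difference between the lists was not tested. Of 15 such genes, placed by approximate starts from general knowledge, 9 had a promoter region in all 4 libraries and 2, HRK and BOK, had none in any. Among the 9, the rank was higher with AI-10-49 without overlap at 3 and lower at 0, with a median difference of 3.2, beside 19.6% higher and 18.8% lower over all common regions. A count of 3 in 9 is near that background, which is not limited to promoters. Among these was DIABLO, whose product frees caspases from their inhibitors, with 22 and 16 reads with DMSO, against 32 and 39 with AI-10-49. BIRC5, the gene of survivin, had a region found with AI-10-49 alone, with 3 and 7 reads. BCL2A1, a further survival gene of the family, had 3 and 6 reads with DMSO, against 6 and 6 with AI-10-49, and its ranks overlapped.

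Most sites were distal, which here means only more than 2 kb from the start of the window's own gene. Promoters of other genes were not screened for, so distal sites can include them. Of the 114 regions, 96 lay more than 2 kb from the start and 18 within it, and 45 (39.5%) were listed in all 4 libraries, against 28.1% of all regions. A single list held 38 of them, or 33.3%, against 43.9% of all regions. BAD had 17 regions with 9 in all libraries, PMAIP1 16 with 8, BAX 10 with 7 and MCL1 12 with 6. BBC3 had 12 with 4, BCL2L1 11 with 4, and BCL2 11, BAK1 6 and BID 13 with 2 each. BCL2L11 had the sparsest window, with 6 regions of which 1 was common.

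**Figure D3:**
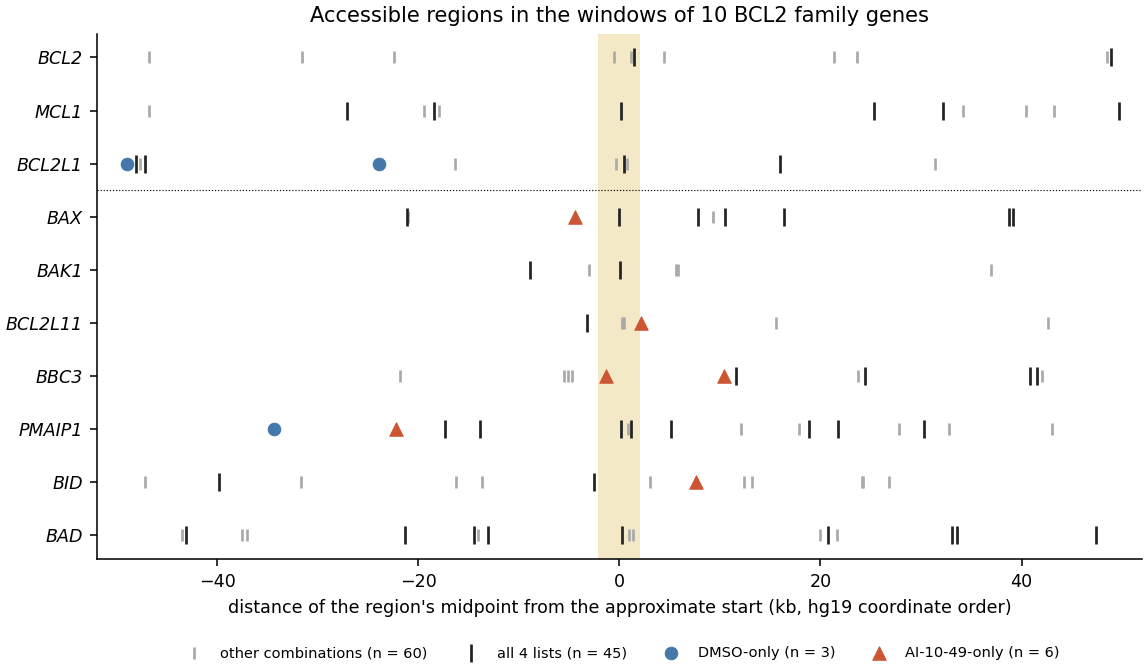
Position of every member region relative to the approximate start of its gene (horizontal axis, kb, in the order of hg19 coordinates), with 1 row per gene and survival genes above the dotted line; the shaded band is the promoter window of 2 kb on either side. The 6 triangles of AI-10-49-only regions all lie in death gene rows, and 2 of the 3 circles of DMSO-only regions lie in the BCL2L1 row.

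By its lowest rank over the 4 libraries, the strongest distal site of the set lay at the edge of the BCL2 window. At chr18:61034727-61035036, 48.88 kb above the start, reads were 44 and 29 with DMSO, against 29 and 37 with AI-10-49. KDSR is the next protein-coding gene on that side in RefSeq order. Whether the site is a promoter of KDSR or a distal site of BCL2 was not determined, as no hg19 annotation was used. The ranks of 99.6 and 99 with DMSO, against 94.9 and 96.3 with AI-10-49, did not overlap, so this site ranked lower with AI-10-49 while the BCL2 promoter ranked higher. At BCL2L1 the strongest distal site, chr20:30326860-30327105, held 24 and 16 reads with DMSO, against 34 and 27 with AI-10-49, and its ranks overlapped. At MCL1 it was chr1:150601582-150601863, with 19 and 15 reads with DMSO, against 32 and 34 with AI-10-49. Its ranks of 82.8 and 75.3 with DMSO lay below those of 93.2 and 92.2 with AI-10-49.

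Other distal sites of MCL1 differed from each other. At chr1:150524803-150525082, at -27.06 kb from the start, reads were 9 and 9 with DMSO, against 21 and 17 with AI-10-49, and the ranks of 51.4 and 58.3 lay below those of 88.3 and 74.2. At chr1:150533484-150533675 the DMSO libraries disagreed, with 14 and 6 reads, against 5 and 9 with AI-10-49, and the ranks overlapped. ADAMTSL4 and ENSA are among the protein-coding genes beside MCL1 in RefSeq order, and which gene these sites serve was not tested.

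PMAIP1 had the most regions of any gene after BAD. The distal ones named here did not rank higher with AI-10-49 as its leading promoter region did. The region chr18:57585734-57586007, 18.87 kb above the start, was the highest in reads, with 27 and 18 with DMSO, against 24 and 17 with AI-10-49, and its ranks of 95.3 and 87.6 against 88.3 and 64.5 overlapped. At chr18:57588643-57588853, the strongest by its lowest rank, reads were 15 and 14 with DMSO, against 16 and 17 with AI-10-49. Its ranks of 68.0 and 73.0 lay just above those of 66.5 and 65.0 with AI-10-49. At chr18:57553027-57553167 reads were 7 and 11 with DMSO, against 7 and 6 with AI-10-49, and the ranks of 29.7 and 64.8 with DMSO lay above those of 22.5 and 6.3.

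Distal sites of BBC3 differed in direction, while at BAX and BAD 0 sites ranked lower without overlap. The strongest at BBC3, chr19:47760082-47760702, held 13 and 12 reads with DMSO, against 16 and 25 with AI-10-49, and its ranks of 64.6 and 68.6, against 64.0 and 82.3, overlapped. A second, chr19:47747408-47747795, 11.60 kb above the start, held 11 and 8 reads with DMSO, against 9 and 9 with AI-10-49. Its ranks were lower with AI-10-49, at 34.1 and 27.1 against 67.6 and 56.1, while those of chr19:47776776-47776968 were higher, at 47.5 and 46.6 against 21.9 and 38.6. At BAX the strongest, chr19:49496503-49497009, held 9 and 10 reads with DMSO, against 18 and 22 with AI-10-49, and ranked at 41.8 and 56.5 with DMSO, below the 75 and 78.9 with AI-10-49. FTL, which encodes ferritin light chain, GYS1 and RUVBL2 follow BAX among protein-coding genes in RefSeq order. Which gene this site serves was not tested. At BAD the strongest, chr11:64072533-64073022, held 13 and 15 reads with DMSO, against 20 and 27 with AI-10-49, with overlapping ranks. A second, chr11:64085435-64085736, held 9 and 8 reads with DMSO, against 16 and 21 with AI-10-49, and its ranks of 77.2 and 83.2 with AI-10-49 lay above those of 38.7 and 50.3 with DMSO. CCDC9 is the next protein-coding gene after BBC3 in RefSeq order, and GPR137 and KCNK4 are the first after BAD. Neighbouring genes were not placed on hg19, and which gene the sites of BBC3 and BAD serve was not tested.

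The strongest distal sites of the remaining genes were weaker. At BID, chr22:18217116-18217259 held 5 and 7 reads with DMSO, against 5 and 6 with AI-10-49, and its ranks of 12.9 and 22.8 with AI-10-49 lay below those of 33.6 and 59.2 with DMSO. The BAK1 site chr6:33539040-33539266 held 7 and 5 reads with DMSO, against 8 and 6 with AI-10-49, with overlapping ranks. The only common site of BCL2L11, chr2:111874714-111874839, held 4 and 3 reads with DMSO, against 5 and 4 with AI-10-49, at ranks of at most 5.0. Over the 37 distal sites in all 4 libraries, 10 ranked higher without overlap, 5 lower and 22 overlapped, with a median difference of 6.5. Over all common regions 19.6% ranked higher and 18.8% lower without overlap. For the 9 sites of survival genes the numbers were 2, 1 and 6, and for the 28 of death genes 8, 4 and 16. On chromosome 19, which holds BAX and BBC3, 35.9% of common regions ranked higher, and on chromosome 22, which holds BID, 31.6%. Of the common regions of BAX, its promoter included, 4 ranked higher without overlap, and of those of BBC3 2.

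Some sites were listed after one treatment alone. AI-10-49-only regions, listed in both AI-10-49 libraries and in neither DMSO library, numbered 6, all in windows of death genes: BBC3 (2), BAX, BCL2L11, PMAIP1 and BID. They were 6 of the 62 member regions found in both AI-10-49 libraries, or 9.68%, against 5.36% over the genome. By group this was 0 of 17 for survival genes and 6 of 45, or 13.3%, for death genes. The share was 9.23% on chromosome 19, which holds BAX and BBC3, and 9.31% on chromosome 22, which holds BID, and 4 of the 6 regions lie on these 2 chromosomes. DMSO-only regions numbered 3 of the 51 found in both DMSO libraries, or 5.88%, against 11.8% over the genome, with 2 at BCL2L1 and 1 at PMAIP1. For survival genes this was 2 of 15, or 13.3%, and for death genes 1 of 36, or 2.78%.

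Summits of these 9 regions held 3 to 9 reads, and the median summit of a whole list held 5 reads with DMSO, against 7 with AI-10-49. Besides the BBC3 promoter and the BCL2L11 site given above, the AI-10-49-only regions were chr19:49453521-49453610 at BAX with 5 and 3 reads, chr19:47746371-47746476 at BBC3 with 5 and 8, chr18:57544694-57544816 at PMAIP1 with 4 and 4, and chr22:18264574-18264767 at BID with 7 and 7. The DMSO-only regions were chr20:30261958-30262098 with 5 and 6 reads and chr20:30287059-30287191 with 3 and 3 at BCL2L1, and chr18:57532606-57532718 with 4 and 3 at PMAIP1. Their number depended on the lists. With the strongest 48930 peaks of every list, DMSO-only regions numbered 0 and AI-10-49-only regions 7, of which 4 were the same and all lay at death genes. At a −log10 q-value of 5 or more there were 0 and 7, but 0 of these 7 were among the 6, and 2 of them lay at survival genes. Leaving out a library asks for fewer lists, and AI-10-49-only regions then numbered 13, 10, 20 and 13 without DMSO replicate 1, DMSO replicate 2, AI-10-49 replicate 1 and AI-10-49 replicate 2, with 4, 1, 3 and 2 of them at survival genes. DMSO-only regions numbered 13, 10, 6 and 3 in that order.

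Each library's list was also counted as a whole. Survival gene windows held 23 and 21 peaks with DMSO, against 21 and 21 with AI-10-49, and death gene windows 49 and 49, against 55 and 61. Per 1000 listed peaks, all member windows held 1.07 ± 0.00446 peaks with DMSO and 1.54 ± 0.0133 with AI-10-49 (SD, n = 2 each; exact permutation p = 0.33, adjusted p = 0.33). For survival genes the values were 0.332 ± 0.0134 and 0.411 ± 0.0256, and for death genes 0.74 ± 0.0178 and 1.13 ± 0.0123 (exact permutation p = 0.33 and adjusted p = 0.33 for each). The groups did not overlap in any of these, and the gap was wider than the spread between replicates. The lists with AI-10-49 were shorter, which raises such a share where the number of peaks stays the same. With lists of equal length the difference for all members was 0.378 in place of 0.472. For survival genes the difference of 0.0792 was 0.0511 with lists of equal length and 0.0454 in windows of 25 kb, where the groups overlapped. For death genes the difference of 0.393 was 0.256 at a −log10 q-value of 5 or more.

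**Figure D4:**
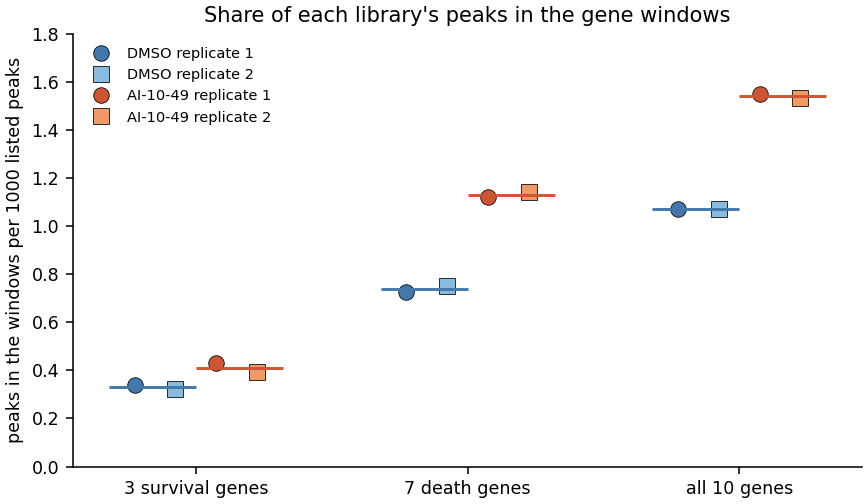
Peaks in the gene windows per 1000 listed peaks (vertical axis, from 0) for survival genes, death genes and all 10 genes, with 1 point per library and a line at each group's mean of 2 libraries. The AI-10-49 points lie above the DMSO points in each set, with means of 1.13 against 0.74 for death genes and 0.411 against 0.332 for survival genes.

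Within the member peaks, the part in survival gene windows was 31.9% and 30% with DMSO, against 27.6% and 25.6% with AI-10-49, a difference of -4.35 percentage points (two-sided exact permutation p = 0.33, adjusted p = 0.33). The direction turned to 1.08 percentage points at a −log10 q-value of 5 or more. Common regions on chromosomes 19 and 22 had a median rank difference of 7.0 each, against -0.5 on chromosome 18, 0.2 on chromosome 1 and 1.7 on chromosome 20, where the survival genes lie. It was -1.2 on chromosome 2, -0.8 on chromosome 6 and -0.2 on chromosome 11, which hold BCL2L11, BAK1 and BAD. The part of such a shift along chromosomes in the values of single genes was not tested.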

How the data were processed

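ATAC-seq of ME-1 cells was deposited as 1 peak list per library, on hg19 per the submitters' processing notes. The same notes list MACS2 2.1.0, Bowtie2, cutadapt 1.3, deepTools and Picard 1.96; what each did, and with which settings, is not given in the sources used here. Fold enrichment (a ratio), −log10 p-value, −log10 q-value, an integer score and the summit position of each peak are the authors' deposited values; the score was not used. Columns were read by the narrowPeak format.

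Groups and replicate numbers came from the sample titles. Nothing beyond the series' wording says that replicates were separate cultures, so p-values measure the spread between these libraries. Autosomal and X peaks entered, and of rows with equal coordinates the one with the highest −log10 p-value was kept. Summit reads n and background λ were solved from fold = (n + 1)/(λ + 1) and the Poisson p-value (tolerance 0.001), with whole reads for 99.99% of peaks in each library; this and the merging were tested on simulated data. Peaks overlapping by at least 1 bp across lists were merged. Coordinates are 1-based. Python 3.11.15, pandas 2.3.3, numpy 2.4.6 and scipy 1.17.1 were used. Group means of library values were compared by exact permutation. Total reads per library were not given, so depth is described by summit reads and background.

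The members and lists were chosen with earlier results of these data known. All 10 genes are named, each with its leading promoter region, its strongest common distal region by its lowest rank, and all DMSO-only and AI-10-49-only regions; other distal regions were chosen after their values were seen. Other apoptosis genes are named where a promoter region was listed in no library or after 1 treatment alone; BCL2A1 and DIABLO were named after their values were seen. Values of some single genes in these lists are not reported here. No annotation of hg19 was used here; starts of genes other than the 10 came from general knowledge. RefSeq (GRCh38.p14) gave promoter letters and the order of neighbouring genes.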

Additional observations from a re-analysis of the deposited data

How the results depend on the processing

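Alternatives were a limit of 5 on the −log10 q-value, the strongest 48930 peaks of every list, 50% reciprocal overlap, windows of 25 and 100 kb, promoters within 1 or 5 kb, ranks by the authors' fold, the background at each summit, the replicate block and leaving out each library. Since no p can pass 0.05 here, only directions and sizes were compared. The median log2 height ratio of promoters changed sign, from 0.10 to -0.03, with the background at each summit. For that background no genome median was computed, so the place of the promoters relative to the genome is not known there. The difference in survival gene windows went from 0.0792 to 0.0454 with windows of 25 kb, where the groups overlapped (exact permutation p = 0.667). Of 53 values for rank differences of single promoters, 32 moved by less than the spread between replicates, among them the sign changes of BAK1 and BAD without single libraries, and 21 by more. The part of member peaks in survival gene windows reversed, to 1.08 percentage points (exact permutation p = 1) with the limit of 5; the cause was not tested. DMSO-only regions numbered 0 with that limit and 0 with the strongest 48930 peaks, in place of 3. Leaving out a library relaxes the criterion for its group and for absence in the other, and gave 3 to 13 DMSO-only regions (13 and 10 without DMSO replicate 1 or 2, 6 without AI-10-49 replicate 1) and 10 to 20 AI-10-49-only regions (13 and 10 without DMSO replicate 1 or 2, 20 and 13 without AI-10-49 replicate 1 or 2). The difference in median promoter rank was 24.2 to 32 without single libraries, 11.4 with the limit of 5, where 5 genes remained, and 18.7 to 30.5 under the other settings. Paired by replicate number (replicate block), the differences were 27.7 for that rank and 0.472 for the peaks per 1000 (exact sign-flip p = 0.5, the smallest that 2 pairs allow). The labels do not say what a replicate number shares. The median log2 height ratio of promoters was 0.00 to 0.26 without single libraries. Summits of a few reads limit all of these values, and absence from a list means only that a site was below the cutoff.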
